A study of Mus musculus with 10 samples.

Results

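Solute carriers were measured on 10 Affymetrix arrays of mouse kidney RNA, through every probe set whose only annotated symbol starts with Slc and a number. The families Slc2, Slc12, Slc22, Slc25, Slc28, Slc29 and Slc34 and the genes Slc7a5, Slc7a11 and Slc30a1 were left out. This gave 290 of 22690 probe sets, for 185 of 12394 annotated genes, in 42 families. Of these, 193 probe sets for 132 genes were bright enough to be tested (mean signal above the 40th percentile), and 97 probe sets were not. The label of cell membrane carriers holds only in part. The Slc35 family carries nucleotide sugars into the Golgi apparatus, Slc37a4 lies in the endoplasmic reticulum, and 3 symbols (Slc9a3r1, Slc9a3r2 and Slc4a1ap, 10 probe sets) belong to scaffold or adaptor proteins that carry no solute.

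All kidneys came from male C57/BLACK6 mice aged 7 weeks, of about 20 g. Every mouse received 200 µM 4-thiouridine with tritiated cytidine into the peritoneum, so that RNA made after the injection could be separated. The normal mice had no operation, were injected at 0 h and 1 h, and gave their kidneys at 2 h. In the contralateral group the other kidney was clamped for 45 min under ether anaesthesia through a flank incision, the injections followed 1 h and 2 h after reperfusion, and the unclamped kidney was taken at 3 h. The labels describe no sham operation, so surgery, anaesthesia, the distant injury and the time of sampling cannot be told apart. Each kidney group was measured as unamplified total RNA (2 arrays, biological replicates), as linearly amplified total RNA (2 arrays) and as newly transcribed RNA (1 array).

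Solute carriers are membrane proteins that move sugars, amino acids, ions, metals and metabolites. In the kidney the proximal tubule uses sodium-coupled carriers on its luminal face to take back glucose, amino acids, sulfate, carboxylates and peptides from the filtrate. Carriers on the blood side, among them the sodium bicarbonate cotransporter encoded by Slc4a4, hand the solutes and bicarbonate on to the blood.

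The arrays differed in brightness and in the balance between the ends of transcripts. Median deposited intensity ran from 18.6 (contralateral newly transcribed) to 70.3 (normal newly transcribed). The ratio of the 3′ to the 5′ Gapdh control probe set was 0.938 to 1.12 in total RNA, 4.21 to 6.23 in amplified RNA, and 12.7 and 68.9 in the normal and contralateral newly transcribed RNA. Of the proximal tubule markers on the array, all 8 were above the filter, and of the skeletal muscle markers none of 5. The summed signal of 7 leukocyte markers was 1646 and 1812 in normal against 1774 and 1559 in contralateral total RNA, but 1466 and 1535 against 2151 and 1759 in amplified RNA and 1233 against 2546 in newly transcribed RNA. The red blood cell marker Alas2 was the only 1 of 3 above the filter. The part of these differences in the results that follow was not tested.

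Slc10a6, a sodium-dependent carrier of sulfated steroids, and Slc38a2, a sodium-coupled neutral amino acid carrier, had a higher mean signal in the contralateral kidney in all 3 preparations. Their promoters are shown because these are the members whose values had the same sign throughout and whose rise in amplified RNA passed under all 18 alternative settings. Each is 300 bases from RefSeq (GRCm38.p6), from 250 bases before the annotated start to 50 bases after it. The strand is minus for both, at chr5:103629354-103629653 for Slc10a6 and at chr15:96699679-96699978 for Slc38a2. Capitals mark matches, on either strand, to 5 motifs.
Slc10a6: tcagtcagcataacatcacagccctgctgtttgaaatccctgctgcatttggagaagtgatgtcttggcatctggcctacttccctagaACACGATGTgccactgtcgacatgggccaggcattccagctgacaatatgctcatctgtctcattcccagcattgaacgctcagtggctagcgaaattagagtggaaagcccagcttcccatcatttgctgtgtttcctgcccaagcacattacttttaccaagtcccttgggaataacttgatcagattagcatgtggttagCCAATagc
Slc38a2: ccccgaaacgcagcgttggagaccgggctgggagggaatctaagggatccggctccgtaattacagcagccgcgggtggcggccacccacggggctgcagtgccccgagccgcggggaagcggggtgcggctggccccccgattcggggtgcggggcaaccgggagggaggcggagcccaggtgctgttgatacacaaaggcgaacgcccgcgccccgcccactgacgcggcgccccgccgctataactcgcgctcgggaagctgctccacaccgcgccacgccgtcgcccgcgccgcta

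The motifs searched were the core of the glucocorticoid receptor palindrome (ACANNNTGT), the STAT palindrome (TTCNNNGAA), the core of the amino acid response element (TGATGNAA), the CCAAT box (CCAAT) and the TATA box (TATAAA). The Slc10a6 window held ACACGATGT at position 90 of 300 and CCAAT at position 293. The Slc38a2 window held none of the 5, and 73.0% of its bases were G or C against 48% for Slc10a6. Of 32851 mouse promoters of this length, 6.85% held ACANNNTGT, 8.3% TTCNNNGAA, 3.97% TGATGNAA, 37.41% CCAAT and 13.62% TATAAA. A match describes letters in the window and is not evidence of a bound factor.

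In unamplified total RNA, 4 of the 193 tested Slc probe sets rose in the contralateral kidney and 0 fell. They belong to 3 genes: Slc10a6, the zinc exporter Slc30a2 and Slc4a4. All values below are log2 signals after quantile normalization, with differences as contralateral minus normal. Slc10a6 read 6.17 and 6.56 in the normal kidneys against 7.44 and 7.33 in the contralateral kidneys. Both contralateral arrays lay above both normal arrays, a difference of 1.02 (SE 0.19, adjusted p = 0.0228), or 2.03-fold. Slc30a2, which loads zinc into vesicles, read 7.98 and 8.0 against 8.46 and 8.72. Its difference was 0.60 (SE 0.13, adjusted p = 0.0392), with no overlap between the groups.

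Slc4a4 was represented by 3 tested probe sets. The probe set 1421225_a_at read 8.85 and 8.29 in normal against 9.53 and 9.57 in contralateral total RNA, a rise of 0.98 (SE 0.17, adjusted p = 0.0160). The probe set 1452071_at read 10.07 and 9.67 against 10.54 and 10.47 and rose by 0.63 (SE 0.13, adjusted p = 0.0402). The brightest, 1426432_a_at, read 10.36 and 10.21 against 10.82 and 10.59. Its difference of 0.41 (SE 0.11, adjusted p = 0.108) did not pass, although the groups did not overlap.

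The share of Slc probe sets that rose in total RNA, 2.07%, lay beside 1.58% of all 13575 tested probe sets, and the share that fell, 0, beside 0.331%. At an unadjusted p under 0.05 the limma test gave 34 Slc probe sets in both directions together. Counts at this cut-off, here and below, have no share of all tested probe sets beside them. They cannot be read as a result about carriers. The median Slc difference was -0.03 and that of all tested probe sets -0.01. The next smallest p-values did not pass. They belonged to the lactate and pyruvate carrier Slc16a1 (0.61, SE 0.14, adjusted p = 0.0541), the copper carrier Slc31a2 (-0.61, SE 0.15, adjusted p = 0.0669) and the taurine carrier Slc6a6 (0.70, SE 0.17, adjusted p = 0.0691). Each of the 4 calls was lost under some of the 18 alternative settings. Slc10a6 and the Slc4a4 probe set 1421225_a_at were lost under 5, the Slc4a4 probe set 1452071_at under 8 and Slc30a2 under 9. All 4 were lost with no filter on dim probe sets, and without the 2nd normal or either contralateral total RNA array. Slc10a6 and Slc30a2 were also lost without the 1st normal total RNA array. Slc30a2 and 1452071_at were lost with a median shift in place of quantile normalization.

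**Figure D1:**
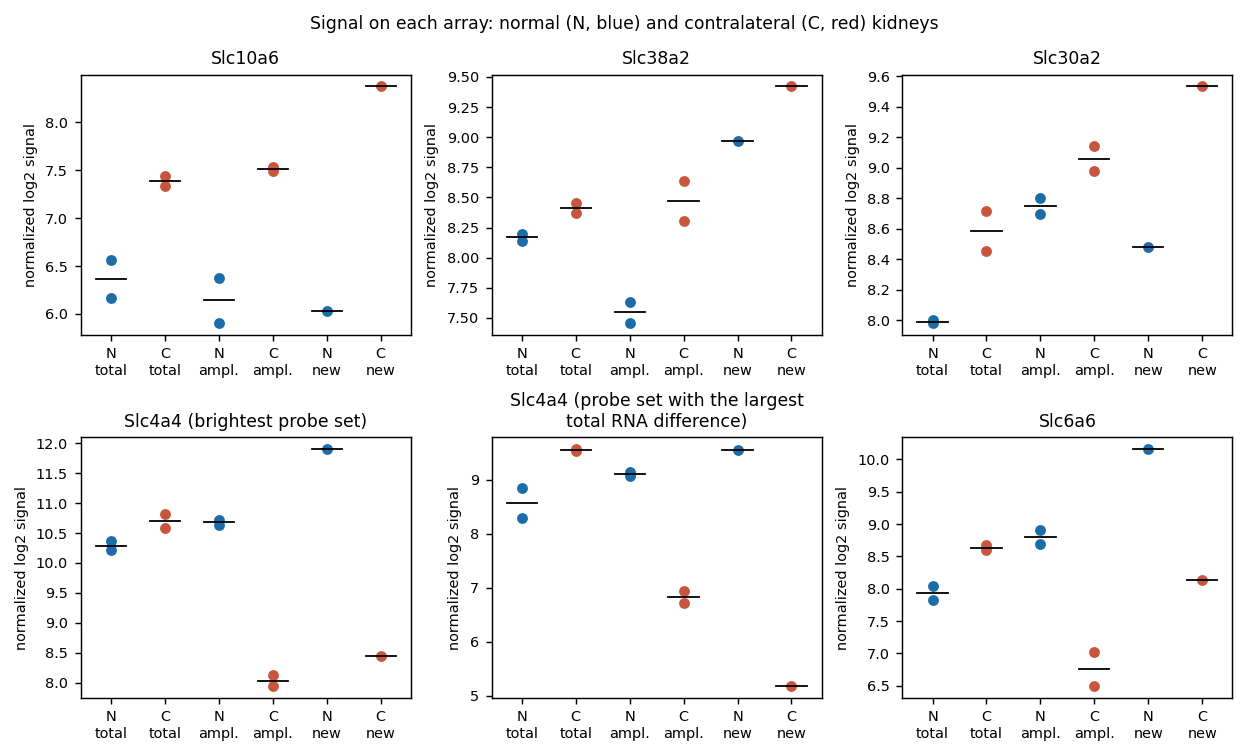
Normalized log2 signal (vertical axis) on each array (points) of normal (N, blue) and contralateral (C, red) kidneys in total, amplified total (ampl.) and newly transcribed (new) RNA, with bars at group means; the panels of Slc4a4 are 1426432_a_at (brightest) and 1421225_a_at. Slc10a6 was higher in the contralateral kidney in each preparation, whereas the contralateral points of Slc4a4 and Slc6a6 lie above the normal ones in total RNA and below them in the other preparations; vertical ranges differ between panels.

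In linearly amplified total RNA, 10 Slc probe sets of 9 genes rose and 10 of 9 genes fell. The rises were in Slc10a6, in the amino acid carriers Slc38a2 and Slc1a5, in Slc43a3 and in the folate carrier Slc19a1. Others were in the zinc and iron importer Slc39a14, the glucose 6-phosphate carrier Slc37a4 and the scaffold Slc9a3r2. A probe set of the ascorbate carrier Slc23a1 rose as well. The falls were in Slc4a4, Slc6a6, the sulfate and anion exchanger Slc26a1, the dicarboxylate carrier Slc13a3, the sodium and proton exchanger Slc9a8, the fatty acid carrier and acyl-CoA synthetase Slc27a2, the scaffold Slc9a3r1, and probe sets of Slc7a13 and Slc11a2. Slc7a13 and Slc11a2 each also had a tested probe set that differed upward, with spans of 1.59 and 1.01 between their probe sets. Of all tested probe sets, 4.1% rose and 6.22% fell, against 5.18% of the Slc probe sets in each direction. The median difference was 0.01 for Slc probe sets and 0.02 for all.

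Slc10a6 read 5.90 and 6.38 in normal against 7.53 and 7.49 in contralateral amplified RNA. The groups were well apart, with a rise of 1.37 (SE 0.19, adjusted p = 0.00101), or 2.59-fold. Slc38a2 read 7.46 and 7.63 against 8.63 and 8.31 and rose by 0.93 (SE 0.14, adjusted p = 0.00161). In total RNA its 8.20 and 8.14 against 8.45 and 8.37 gave 0.25 (SE 0.14, adjusted p = 0.438), which did not pass.

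Slc37a4, whose product brings glucose 6-phosphate into the endoplasmic reticulum for glucose release, read 10.85 and 10.92 against 11.37 and 11.58 and rose by 0.59 (SE 0.09, adjusted p = 0.00236). Slc19a1 read 8.05 and 8.20 against 8.78 and 8.89 on 1420138_at, a rise of 0.71 (SE 0.13, adjusted p = 0.00515). Its 2 tested probe sets lay 0.57 apart, and the other, 1448132_at, did not pass. Slc39a14 read 8.15 and 8.07 against 8.59 and 8.94, a rise of 0.65 (SE 0.17, adjusted p = 0.0329). In all 3 the contralateral arrays lay above the normal ones. Among the other rises, Slc9a3r2 changed by 0.85 (adjusted p = 0.0369), Slc43a3 by 0.62 (0.0485) and Slc1a5, a neutral amino acid exchanger, by 0.51 (0.0426). Leukocyte markers had a higher summed signal in the same contralateral amplified arrays, as given above, and their part in these rises was not tested.

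Slc4a4 had the largest fall of any Slc probe set in amplified RNA. The probe set 1426432_a_at read 10.72 and 10.64 in the normal kidneys against 7.95 and 8.13 in the contralateral kidneys. The difference was -2.64 (SE 0.11, adjusted p = 7.5e-07), a 6.24-fold lower signal. The probe set 1421225_a_at read 9.15 and 9.08 against 6.72 and 6.93, a difference of -2.29 (SE 0.17, adjusted p = 2.18e-05). The third, 1452071_at, read 9.20 and 9.04 against 8.88 and 8.80, and its -0.28 (SE 0.13, adjusted p = 0.224) did not pass.

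Slc6a6, which takes up taurine, read 8.69 and 8.91 against 6.50 and 7.03 on probe set 1421346_a_at, a fall of 2.03 on the log2 scale (SE 0.17, adjusted p = 5.39e-05). Its other tested probe set, 1449751_at, read 5.23 and 5.29 against 5.03 and 4.67, and its -0.41 (adjusted p = 0.257) did not pass. These values lay near the level of the filter, so this probe set could hardly show a fall of that size. Slc26a1 read 7.17 and 7.80 against 5.96 and 6.24, a difference of -1.39 (SE 0.24, adjusted p = 0.00381). Slc13a3 read 10.30 and 10.36 against 9.59 and 9.42 on 1438377_x_at, a difference of -0.82 (SE 0.13, adjusted p = 0.00221). Its other tested probe set, 1416560_at, read 8.56 and 8.42 against 8.44 and 8.53, with overlapping groups. The remaining falls of genes were -0.69 for Slc9a8 (adjusted p = 0.0389), -0.56 for Slc9a3r1 (0.0230), which anchors carriers to the brush border, and -0.31 for Slc27a2 (0.0213).

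The calls of Slc37a4, Slc6a6, Slc38a2, Slc10a6, Slc13a3 and both Slc4a4 probe sets passed under all 18 alternative settings, and the other 13 of the 20 did not. The count was 9 or 10 without the 1st or 2nd normal amplified array, 13 without the 2nd contralateral amplified array and 21 without the 1st, which had the lowest median intensity of the amplified arrays.

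**Figure D2:**
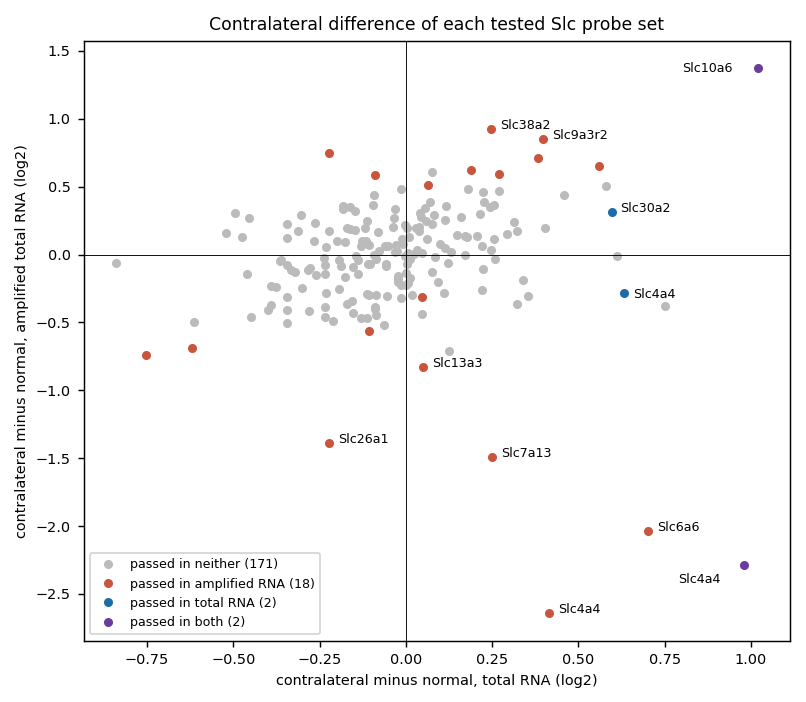
Contralateral minus normal log2 difference in total RNA (horizontal axis) and in amplified total RNA (vertical axis) for each of the 193 tested Slc probe sets, coloured by where it passed the test. Slc10a6 lies at the upper right, and 2 Slc4a4 probe sets and Slc6a6 at the lower right, above 0 in total RNA but below 0 in amplified RNA.

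Total and amplified RNA gave different answers for a few carriers, and the difference of the contralateral effects was tested directly. It passed for 5 Slc probe sets, all lower in amplified than in total RNA, and for 0 in the other direction. Of all tested probe sets, 3.82% passed lower and 0.641% higher, against 2.59% and 0 of the Slc probe sets. An unadjusted p under 0.05 in the limma fit was reached by 31 Slc probe sets.

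The difference of effects was -3.06 (SE 0.16, adjusted p = 3.3e-06) for Slc4a4 on 1426432_a_at, -3.26 (SE 0.24) on 1421225_a_at and -0.91 (SE 0.19, adjusted p = 0.0189) on 1452071_at. It was -2.73 (SE 0.24, adjusted p = 0.000152) for Slc6a6 on 1421346_a_at and -0.88 (SE 0.18, adjusted p = 0.0185) for Slc13a3 on 1438377_x_at. The other tested probe sets of these genes, 1449751_at for Slc6a6 (dim in amplified RNA) and 1416560_at for Slc13a3, did not pass. The first 2 Slc4a4 probe sets and Slc6a6 passed under all 18 alternative settings. Slc13a3 and 1452071_at did not pass without either normal amplified array, the 2nd normal total or the 1st contralateral total array, and the latter also not without the 2nd contralateral total array. For Slc10a6 the effects in the 2 preparations differed by 0.35 (SE 0.27, adjusted p = 0.542), which did not pass.

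The metabolic regulators Ppara and Ppargc1a, on a list of carrier partners and regulators chosen with earlier results of these data known, had the same signs as Slc4a4. Ppargc1a, a transcriptional coactivator of oxidative metabolism, rose by 0.79 in total RNA (adjusted p = 0.00749) and changed by -1.51 in amplified RNA (adjusted p = 3.3e-05). Ppara, a receptor for fatty acids, rose by 1.04 (adjusted p = 0.0115) and changed by -1.0 (adjusted p = 0.00336). These were the only 2 of the 19 tested genes on that list that passed in total RNA. In amplified RNA 1 rose (the ubiquitin ligase Nedd4l, 0.56) and 3 fell (the third was Pdzk1ip1, -0.49). Of 5 tested Slco organic anion transporters, 0 passed in total RNA and 2 rose in amplified RNA (Slco1a4 by 0.81 and Slco2a1 by 0.48). Of all 8300 tested genes, 1.41% rose and 0.386% fell in total RNA, and 4.82% rose and 4.18% fell in amplified RNA.

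Over all 3 preparations together, 1 Slc probe set rose in the contralateral kidney and 0 fell. This was Slc10a6, by 1.43 (SE 0.21, adjusted p = 0.0204), and it was higher in each of the 3 preparations. Of all tested probe sets, 0.383% rose and 0.0589% fell, and 35 Slc probe sets had an unadjusted p under 0.05 in the limma fit. Slc10a6 did not pass here when the 1st normal amplified, the 1st normal total, or any of the 4 contralateral total and amplified arrays was left out. Without the newly transcribed arrays, singly or together, the count was 8.

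Newly transcribed RNA had 1 array per kidney group, so its differences have no replicate check and no test. Slc10a6 read 6.03 in the normal and 8.38 in the contralateral kidney, a difference of 2.35. Slc4a4 read 11.90 and 8.44 on 1426432_a_at, a difference of -3.46, and -3.46 on 1452071_at and -4.37 on 1421225_a_at. Slc6a6 read 10.16 and 8.14. For these 3 genes the sign was that of amplified RNA.

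Other carriers also had large differences between the newly transcribed arrays. The zinc importer Slc39a1 read 6.16 and 9.23, a difference of 3.07, but differed by 0.11 in total and 0.25 in amplified RNA. Slc16a1, a monocarboxylate carrier, read 9.17 and 7.06, against 6.96 and 6.95 in normal and 7.44 and 7.69 in contralateral total RNA. The amino acid carrier Slc7a13 read 10.88 and 8.43, the zinc carrier Slc30a5 9.91 and 7.71, and the nucleotide sugar carrier Slc35a5 8.03 and 5.52. Higher values in the contralateral kidney were also read for Slc9a3r2, with a difference of 2.83, Slc38a10 by 2.27 and Slc13a3 by 1.64, the last against -0.82 in amplified RNA.

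At least 2-fold differences were counted for 28 Slc probe sets higher and 36 lower, or 14.5% and 18.7%, beside 14.4% and 18.5% of all tested probe sets. With each array shifted to a common median in place of quantile normalization, the split was 15 higher and 45 lower, and the median of all tested probe sets moved from 0.00 to -0.21. Of the 22 Slc probe sets that passed in total or amplified RNA, 11 had the same sign in all 3 preparations. Among all 193 Slc probe sets 66 did (29 higher and 37 lower). The same count was not made over all tested probe sets, so it is not a result about carriers.

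The contralateral differences in total and amplified RNA were also read by what the families carry. The families grouped as amino acid carriers (28 tested genes) had 0 rises and 0 falls in total RNA (4 with an unadjusted p under 0.05). In amplified RNA they had 3 rises and 1 fall, and the medians were -0.06 and 0.02. Slc43a3, 1 of the 3 rises, was placed in this group by its family number alone. The acid-base and anion families Slc4, Slc9 and Slc26 (13 tested) had no gene past the threshold in total RNA by their brightest probe set, and 1 rise and 4 falls in amplified RNA, with medians of -0.09 and -0.25. The rise was that of Slc9a3r2 and 1 of the falls that of Slc9a3r1, and these scaffolds and Slc4a1ap are 3 of the 13. The other 10 genes had 0 rises and 3 falls in amplified RNA, with medians of -0.02 and -0.23. Metal carriers (24 tested) had 1 rise in each of these preparations, Slc30a2 in total and Slc39a14 in amplified RNA, with medians of -0.01 and 0.07. The intracellular carriers (21 tested) had 1 call, the rise of Slc37a4 in amplified RNA. Over all 8300 tested genes the medians were -0.03 and 0.04, with 117 rises and 32 falls in total and 400 rises and 347 falls in amplified RNA.

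The 6 sodium-coupled sugar carriers and their relatives of the Slc5 family, among them the glucose carriers Slc5a1 and Slc5a2, had 0 calls in either preparation, with an unadjusted p under 0.05 for 1 gene in total and 2 in amplified RNA. Slc5a2, which takes back most filtered glucose, read 10.61 and 10.61 in normal and 10.50 and 10.54 in contralateral total RNA. In amplified RNA it read 11.69 and 11.75 against 11.65 and 11.72. Its differences of -0.09 and -0.04 did not pass. Of the 41 families with a tested gene, 27 had no gene whose brightest probe set passed in either preparation. Among the 18 families with at least 3 tested genes, the family medians ran from -0.13 (Slc7) to 0.15 (Slc41) in total RNA and from -0.56 (Slc9) to 0.28 (Slc41) in amplified RNA. Slc9 had 3 tested genes, 2 of them the scaffolds, and its median is the value of Slc9a3r1.

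**Figure D3:**
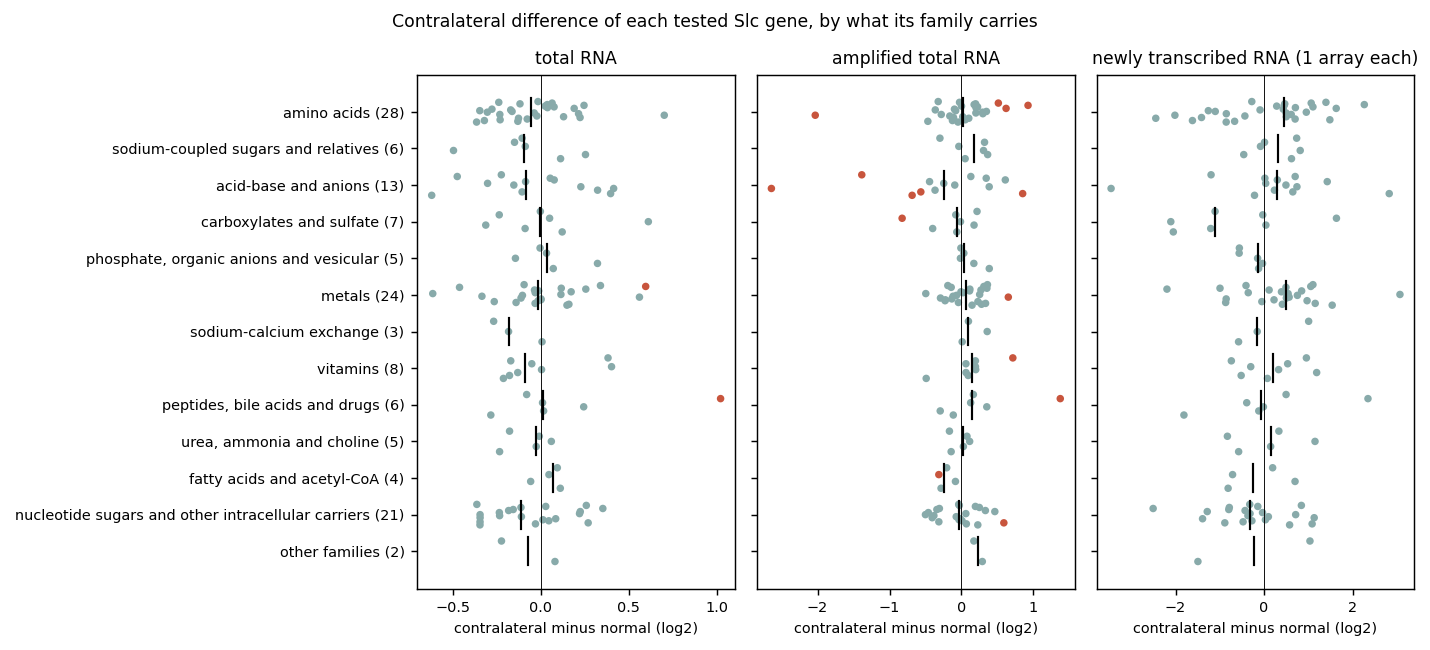
Contralateral minus normal log2 difference (horizontal axis) of each of the 132 tested Slc genes by its brightest probe set, grouped by what its family carries (number of genes in brackets), in the 3 preparations; red points passed the test, grey points did not or, for newly transcribed RNA, were not tested, and bars mark medians. The medians span -0.18 to 0.07 in the total RNA panel and -0.25 to 0.23 in the amplified RNA panel, and the horizontal ranges differ between panels.

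A list of 40 carriers of kidney reabsorption was drawn up by their known function, but with earlier results of these data known. It had 35 genes among the members and 33 tested. By its brightest probe set, 0 of the 33 rose or fell in total RNA (4 had an unadjusted p under 0.05), although other probe sets of Slc4a4 rose as given above. Of these genes 29 differed by less than 0.3 in size, with a range from -0.36 to 0.70 (Slc6a6). In amplified RNA 0 rose and 5 fell, namely Slc4a4, Slc6a6, Slc26a1, Slc13a3 and Slc27a2. This lay beside 8 rises and 2 falls among the other 99 tested Slc genes, and 4.18% of all tested genes that fell. In the limma fit 17 of the 33 genes had an unadjusted p under 0.05. This count has no share of all tested genes beside it and is not a result about the list. The median differences of the list were 0.00 and -0.04.

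Newly transcribed and amplified total RNA were also compared, averaged over both kidneys. Of the 33 genes, 10 (30.3%) passed as lower and 1 (3.03%) as higher in newly transcribed RNA, with a median of -0.24. Among the other 99 tested Slc genes, 10 (10.1%) passed as lower and 19 (19.2%) as higher, with a median of 0.10. Of all 8300 tested genes, 16.9% passed as lower and 13.1% as higher. Over all 193 Slc probe sets 32 were lower and 22 higher, or 16.6% and 11.4%, beside 16.7% and 11.9% of all tested probe sets. With a common median in place of quantile normalization the list gave 16 lower and 0 higher, with a median of -0.52, the other genes 13 lower and 14 higher, with a median of -0.09, and all 193 probe sets 42 lower and 16 higher. All tested probe sets then had a median of -0.10 in place of -0.01.

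The peptide carrier Slc15a2 read 9.27 and 9.11 in normal and 9.38 and 9.26 in contralateral amplified RNA, but 7.88 and 7.49 in the respective newly transcribed RNA. Both newly transcribed values lay below all 4 amplified ones, a difference of -1.57 (SE 0.17, adjusted p = 0.000331). Its other tested probe set, 1417600_at, differed by 0.21 (adjusted p = 0.364). Slc3a1, the subunit of the cystine carrier that is mutated in cystinuria, read 10.30, 10.15, 10.45 and 10.45 in amplified and 8.62 and 9.72 in newly transcribed RNA, a difference of -1.17 (SE 0.21, adjusted p = 0.00282).

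Amino acid carriers of the luminal membrane were also lower, Slc6a18 by -0.96, Slc6a20a by -1.02 and Slc6a20b by -0.70. The ascorbate carrier Slc23a1 differed by -0.93, the glutamine carrier Slc38a3 by -0.70, the sodium-calcium exchanger Slc8a1 by -0.65, the citrate carrier Slc13a2 by -0.62 and Slc5a2 by -0.56. Slc6a6 had the largest difference upward on the list, 1.37, but did not pass, and neither did Slc4a4 with 0.81 on 1426432_a_at. The only gene of the list that passed as higher was the glucose carrier Slc5a1, by 0.67 (SE 0.22, adjusted p = 0.0471). This call was lost under 12 of 17 alternatives (highest adjusted p = 0.341), and its other tested probe set, 1455431_at, differed by 0.08 (adjusted p = 0.851). The probe set that was higher, 1419057_at, read 8.56 and 9.30 in newly transcribed RNA against 8.41 and 8.40 in normal and 8.01 and 8.20 in contralateral amplified RNA. The signs were the same in both kidneys for 17 genes lower and 7 higher. The 3′ to 5′ control ratios of the newly transcribed arrays were higher than those of the amplified arrays, and the summed signal of the 8 proximal tubule markers was 17410 to 19330 on the amplified arrays against 14510 in normal and 10800 in contralateral newly transcribed RNA. The part of either in these differences was not tested.

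**Figure D4:**
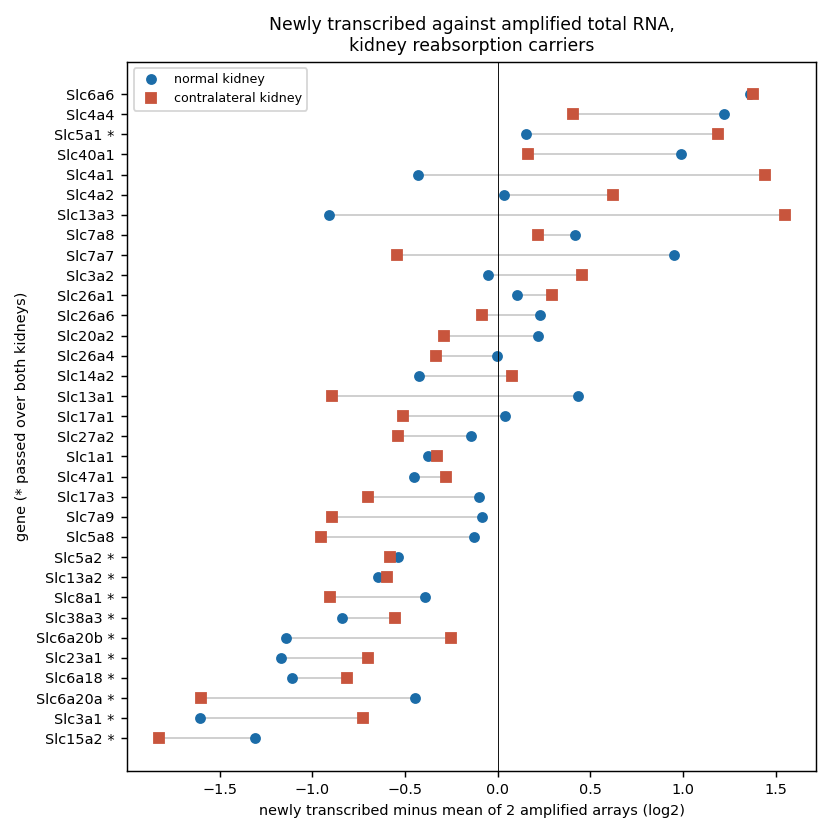
Newly transcribed minus mean amplified log2 signal (horizontal axis) for each of the 33 tested kidney reabsorption genes in normal (blue circles) and contralateral (red squares) kidneys, with an asterisk on genes that passed over both kidneys. Slc15a2 and Slc3a1 lie farthest to the left, and 10 of the 11 genes with an asterisk are below 0.

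Outside that list, the members with the largest differences between newly transcribed and amplified RNA were higher for the thiamine carrier Slc19a2 (1.58, SE 0.21, adjusted p = 0.000784), the UDP-galactose carrier Slc35a2 (1.37), the amino acid carrier Slc7a6 (1.31), the lysosomal carrier Slc66a1 (1.19) and Slc38a2 (1.19). Slc19a2 read 9.24 and 8.50 in newly transcribed RNA and 7.10 to 7.41 on the 4 amplified arrays. The lower ones were Slc7a13 (-1.73), Slc16a4 (-1.60), Slc35b1 (-1.36) and Slc7a12 (-1.19). Without the normal newly transcribed array the number of Slc probe sets past the threshold was 104 in place of 54.

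Many carriers differed between amplified and unamplified total RNA. Of the 193 Slc probe sets, 41 were higher and 27 lower in amplified than in unamplified total RNA, or 21.2% and 14%, beside 20.7% and 17.6% of all tested probe sets. With a common median the Slc split was 54 higher and 17 lower, and the median of all tested probe sets was 0.17 in place of 0.04. Without either or both newly transcribed arrays the number past the threshold was 105 in place of 68.

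The choline carrier Slc44a2 read 6.85, 7.14, 7.08 and 7.03 in total RNA and 8.99, 8.99, 9.12 and 9.09 in amplified RNA on 1438559_x_at. The preparations did not overlap and differed by 2.02 (SE 0.19, adjusted p = 8.22e-05). Its other tested probe set, 1428065_at, differed by -0.30 (adjusted p = 0.336). Slc35a2 was higher by 1.90, Slc1a4, an exchanger of alanine, serine and cysteine, by 1.25, the zinc importer Slc39a6 by 1.18, and the anion exchanger Slc4a1 by 1.17. Other tested probe sets of the last 3 differed by 0.06 for Slc1a4 (1423550_at) and -0.25 for Slc4a1 (1416464_at), which did not pass, and by -0.62 for Slc39a6 (1424675_at), which passed as lower. The 4 tested probe sets of Slc35a2 spanned 2.30 and did not all lie above 0. The genes that were lower were Slc39a1 (-1.38), Slc8a1 (-1.01), Slc35d1 (-0.89), Slc39a9 (-0.86) and Slc35f6 (-0.77). The 2 tested probe sets of Slc35f6 lay 0.91 apart. Slc39a1 did not pass when any of 6 of the 8 arrays compared was left out (highest adjusted p = 0.0903). Metal carriers had 9 genes higher and 2 lower of 24 tested, with a median of 0.46, beside 1901 higher and 1233 lower of 8300 tested genes (22.9% and 14.9%), with a median of 0.10.

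Probe sets of the same gene did not always have the same sign. Of 44 genes with several tested probe sets, 24 had differences of opposite sign in the contralateral comparison in total RNA and 14 in amplified RNA. Many differences were near 0, with quartiles of -0.18 and 0.11 for Slc probe sets in total RNA. The same count was not made over all genes, so these counts are not a result about carriers. For 3 genes, probe sets passed in opposite directions between amplified and unamplified RNA. These were Slc39a6, as given above, the copper carrier Slc31a1, with 0.69 on 1433750_at but -1.06 on 1455285_at, and the iron and metal carrier Slc11a2, with 1.15 on 1452078_a_at and 1.10 on 1417584_at but -0.69 on 1426441_at. For Slc6a6 the difference was -2.59 on 1449751_at (SE 0.18, adjusted p = 2.8e-05). On 1421346_a_at, the probe set that was lower in contralateral amplified RNA, it was -0.50 and did not pass. That value averages the kidneys, although the contralateral effect on this probe set differed by -2.73 between amplified and total RNA, so it describes neither kidney.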

How the data were processed

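The members and gene lists were chosen with earlier results of these data known. The authors deposited 1 linear intensity for each probe set on each array. How probes were summarised and whether background was subtracted is not given in the sources used here. Array medians differ in the deposited values. The precision is limited by the 10 arrays. Here the 64 control probe sets were set aside, log2(intensity + 11.8) was taken (11.8 is the 25th percentile of all values, which understates changes of dim probe sets), and arrays were quantile-normalized. Probe sets with a mean above the 40th percentile (13575) were tested with limma 3.58.1 in R 4.3.3 (lmFit, eBayes with an intensity trend). p-values were adjusted over all tested probe sets (Benjamini-Hochberg, threshold 0.05). The contralateral comparisons and their difference used 6 group means (4 residual degrees of freedom). Comparisons over preparations used an additive model of kidney and preparation (6 residual degrees of freedom). Where a fit compares the newly transcribed RNA, it rests on 1 array per kidney. The fitting steps were tested on simulated data.

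Of 22690 probe sets, 20393 had 1 symbol in the platform annotation, 691 several and 1606 none listed; all 290 members matched RefSeq by Entrez number. A gene stands for its tested probe set with the highest mean. Named genes were those with the 10 largest rises and falls (5 for the other comparisons) that passed with arrays that do not overlap, the smallest p-values where under 5 passed, the 5 largest newly transcribed differences each way, the brightest of each family and the reabsorption list. Further probe sets of named genes, and Slc23a1 and Slc11a2 in amplified RNA, were named after their values were seen. Same-numbered arrays showed no shared deviation (correlations from -0.0701 to 0.0998 over 6 pairs of groups), so replicate numbers were not used as pairs. Alternatives were the pseudocount, normalization, filter, trend, newly transcribed arrays, replicate block and each array left out. The counts by role and list with a common median were added after seeing the data.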

Additional observations from a re-analysis of the deposited data

Results flagged for a closer look

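The contralateral effect differed between amplified and unamplified total RNA, by the test of the difference itself, for 5 Slc probe sets of 3 genes. For the sodium bicarbonate cotransporter gene Slc4a4 the effect in amplified minus that in total RNA was -3.06 on 1426432_a_at, -3.26 on 1421225_a_at and -0.91 on 1452071_at (log2). For the taurine carrier gene Slc6a6 it was -2.73 on 1421346_a_at, and for the dicarboxylate carrier gene Slc13a3 it was -0.88 on 1438377_x_at. The other tested probe set of Slc6a6, which was dim in amplified RNA, and that of Slc13a3 did not pass. No group had the 4 arrays that a check for a single outlying array needs.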

How the results depend on the processing

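No Slc probe set that passed reversed its direction under any alternative that could be run for it, 16 to 18 of the 8 settings and 10 arrays left out in turn. The comparison of newly transcribed RNA could not be run without those arrays, and some probe sets fell under the filter. Calls that passed under every alternative run for them numbered 0 of 4 for the contralateral difference in total RNA, 7 of 20 in amplified RNA, 0 of 1 over all preparations, 3 of 5 for the difference of effects, 43 of 68 for amplified against total RNA and 28 of 54 for newly transcribed against amplified RNA. In total RNA the count of 4 became 2 with a median shift, 0 with no filter on dim probe sets and 2 with no intensity trend. In amplified RNA the 20 became 10 with no filter and 12 with no trend. The difference of effects went from 5 to 3 with no filter and to 3 with no trend. Without the newly transcribed arrays the count over all preparations went from 1 to 8, and amplified against total RNA from 68 to 105. With the median of all values as pseudocount, newly transcribed probe sets at least 2-fold apart went from 64 to 39. With each array left out the counts ranged from 0 to 7 in total RNA, 9 to 21 in amplified RNA, 0 to 8 over all preparations, 3 to 9 for the difference of effects, 52 to 105 for amplified against total RNA and 43 to 104 for newly transcribed against amplified RNA; where this left 1 array in a group, that array was assumed to vary like the others. A block for the replicate number was also fitted, though same-numbered arrays correlated only weakly. The counts were then 6 in total RNA, 17 in amplified RNA and 1 over all preparations. They were 6 for the difference of effects, 63 for amplified against total RNA and 37 for newly transcribed against amplified RNA. Fewer arrays or more tested probe sets are part of some alternatives; for the rest the cause was not tested. Signal over background could not be judged without detection calls, and 97 Slc probe sets under the filter have no test.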
